A study of Homo sapiens with 4 samples.

Results

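The loops described here are the chromatin loops anchored at 7 genes that encode subunits of the transcription factor AP-1: FOS, FOSL1, FOSL2, JUN, JUNB, JUND and ATF3. A loop was counted for a gene when at least 1 of its 2 anchors overlapped the gene body extended by 20 kb on each side. This gave 121 of the 77275 loops in the 4 loop lists, and all 7 genes had at least 4 distinct loops. Hi-C, which counts ligation junctions between DNA segments that lie close together in the nucleus, was done on MDA-MB-231, a triple-negative breast cancer cell line labelled wild type, after 48 h in DMSO (vehicle) or 75 nM THZ1, a covalent inhibitor of the cyclin-dependent kinase CDK7. Both groups grew in complete RPMI with serum. Each group had 2 libraries, which the labels call technical replicates, so the tests below measure only the spread between these libraries. The lists carry no expression values, so neither the identity of the cells nor the activity of the AP-1 genes could be checked from them. The study asked whether loss of CDK7 activity changes the folding of chromatin.

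AP-1 is a dimer of basic leucine zipper proteins. FOS-type proteins pair with JUN-type proteins, JUN-type proteins can also pair with each other, and ATF3 pairs with JUN-type and ATF-type partners, and the dimers bind a short palindrome in promoters and enhancers. Several of the genes are immediate early genes, switched on within minutes by growth factors or stress through mitogen-activated protein kinases, and FOSL1, which encodes FRA1, is known for high activity in mesenchymal-type breast cancer cells such as MDA-MB-231. A chromatin loop joins 2 distant segments of a chromosome, often a promoter and a distal segment or 2 sites bound by CTCF, a DNA-binding protein at which loop extrusion by cohesin stops.

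The starts of FOSL1, FOSL2, JUN, JUNB and JUND lay inside anchors of some of their loops, and the promoter sequences of the last 4 are shown for that reason. The anchors are 5 to 25 kb wide, so the lists do not place a contact within the 300 bases of a promoter. Each stretch runs from 250 bases before to 50 bases after the RefSeq start of the gene, was found at 1 place in GRCh37, and is written 5′ to 3′ on the strand of the gene, with a motif in capitals. The 4 stretches are FOSL2 at chr2:28615475-28615774 on the plus strand, JUN at chr1:59249670-59249969 on the minus strand, JUNB at chr19:12902050-12902349 on the plus strand and JUND at chr19:18392383-18392682 on the minus strand.
FOSL2: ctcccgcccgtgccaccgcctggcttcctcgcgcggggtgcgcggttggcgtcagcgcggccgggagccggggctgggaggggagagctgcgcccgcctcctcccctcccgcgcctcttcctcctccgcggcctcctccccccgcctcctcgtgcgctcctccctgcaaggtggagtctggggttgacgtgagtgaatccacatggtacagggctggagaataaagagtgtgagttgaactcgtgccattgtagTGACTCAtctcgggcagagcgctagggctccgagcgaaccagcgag
JUN: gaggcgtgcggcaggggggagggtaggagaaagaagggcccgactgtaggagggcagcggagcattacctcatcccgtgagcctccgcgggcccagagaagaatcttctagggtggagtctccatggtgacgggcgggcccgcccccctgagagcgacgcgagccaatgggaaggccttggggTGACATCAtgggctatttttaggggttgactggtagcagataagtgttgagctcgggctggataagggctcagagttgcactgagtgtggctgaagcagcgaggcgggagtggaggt
JUNB: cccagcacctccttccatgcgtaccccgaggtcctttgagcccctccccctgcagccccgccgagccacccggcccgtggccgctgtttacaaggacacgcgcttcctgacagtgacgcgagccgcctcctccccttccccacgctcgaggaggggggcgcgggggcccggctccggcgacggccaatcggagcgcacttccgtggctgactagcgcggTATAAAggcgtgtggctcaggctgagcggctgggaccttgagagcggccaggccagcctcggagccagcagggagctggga
JUND: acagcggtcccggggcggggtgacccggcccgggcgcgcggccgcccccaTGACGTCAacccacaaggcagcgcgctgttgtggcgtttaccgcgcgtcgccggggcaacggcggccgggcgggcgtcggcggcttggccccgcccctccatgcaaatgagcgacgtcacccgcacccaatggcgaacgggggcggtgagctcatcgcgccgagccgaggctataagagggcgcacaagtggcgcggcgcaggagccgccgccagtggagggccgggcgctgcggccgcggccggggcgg
The capitals mark the AP-1 palindrome in FOSL2, an octamer related to the cyclic AMP response element in JUN, a TATA box in JUNB and the cyclic AMP response element itself in JUND. The AP-1 motif, searched as TGANTCA with C or G at N, began at 4 relative to the start of FOSL2, and 4.95% of 35116 RefSeq promoters of this length held it on either strand. The octamer TGACATCA began at -67 in JUN and was found in 2.61% of promoters, and the element TGACGTCA began at -200 in JUND and was found in 1.85%. TATAAA, searched on the strand of the gene, began at -31 in JUNB and was found in 7.33% of promoters. These are matches of letters and not measured binding sites. The promoter of FOS, which holds TATAAA at -33, and both RefSeq promoters of ATF3 were in no loop anchor, and FOSL1 had no entry in the promoter table. An anchor of ATF3 loops did hold the starts of 3 of its 10 annotated transcripts, away from both RefSeq promoters.

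FOSL2 was the gene whose promoter took part in the most loops. Of the loops at these promoters, 26 ended on the FOSL2 promoter, with 7 in each vehicle library and 6 in each THZ1 library. The JUN promoter was in the anchors of 10 loops, with 3, 3, 1 and 3 in vehicle replicates 1 and 2 and THZ1 replicates 1 and 2, the order used for all values below. JUND followed with 6 loops (2, 2, 1 and 1) and JUNB with 3 (1, 1, 1 and 0). Over all 7 genes, 67 of the 121 loops had an anchor on the gene body itself, 19 and 20 of them with vehicle and 13 and 15 with THZ1.

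In all, the AP-1 genes had fewer loop calls with THZ1, to about the degree that all loops did. The vehicle libraries had 37 and 35 calls and the THZ1 libraries 23 and 26, which did not overlap. The mean was 36.0 ± 1.41 with vehicle and 24.5 ± 2.12 with THZ1 (SD, n = 2), a 1.47-fold difference, with p = 0.33 in a two-sided exact permutation test. With 2 libraries against 2 this test cannot go below 0.33. All loops of the lists differed 1.39-fold between the groups, and the AP-1 genes held 0.178%, 0.145%, 0.134% and 0.173% of all loops, shares that overlapped between the groups (exact permutation p = 0.667). The lists hold only called loops, so a loop that a library does not list has no contact value there, and its loss cannot be told from a peak that stayed just under the caller's limit. Library sizes are not in the lists: contacts at the called AP-1 loops summed to 1187, 1234, 721 and 1012, out of 622305, 762701, 631600 and 551436 at all loops, and each sum depends on how many loops were called.

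By gene, FOS had 6, 4, 3 and 0 loops, FOSL1 had 4, 4, 1 and 5, and FOSL2 had 7, 8, 6 and 6. JUN had 8, 9, 3 and 7, JUNB had 5, 2, 3 and 3, JUND had 2, 4, 3 and 2, and ATF3 had 5, 4, 4 and 3. FOS, FOSL2 and JUN thus had fewer loops in both THZ1 libraries than in either vehicle library, while FOSL1, JUNB, JUND and ATF3 overlapped between the groups. This is 3 of 7 genes, where 28.9% of the 17028 protein-coding genes with a loop showed such a difference. No AP-1 gene had more loops in both THZ1 libraries, against 3.01% of genes. JUN, with 11 distinct loops, had more than 95.0% of protein-coding genes, and FOSL2, with 10, more than 92.9%. The median over 20098 genes was 4, which was also the number at FOSL1, JUNB and JUND.

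**Figure D1:**
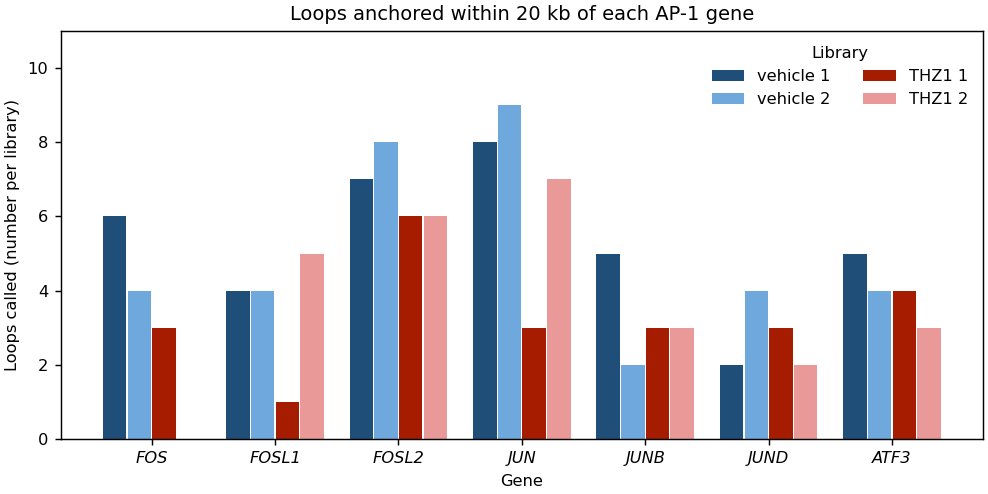
Loops called per library (bars, number of loops on the y axis) with an anchor within 20 kb of each of the 7 AP-1 genes (x axis), in 2 vehicle and 2 THZ1 libraries. Both THZ1 bars are lower than both vehicle bars at FOS, FOSL2 and JUN, and THZ1 replicate 1 has 1 loop at FOSL1 where the other libraries have 4 or 5.

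FOS encodes the founding FOS protein, an immediate early gene product of short life. No loop in any library had an anchor on its 3.4 kb body: every FOS loop ended on flanking DNA, most often at chr14:75760001-75765000, which starts 11.1 kb past the end of the gene. As a 5 kb anchor this segment was used only by calls of the vehicle libraries, and THZ1 replicate 1 had anchors of 10 and 25 kb over it. The most contacts were seen between this segment and the start of NEK9, a kinase of mitotic spindle assembly, at chr14:75590001-75595000. This 170 kb loop had 73 and 81 contacts in the vehicle libraries, 8.64 and 9.04 times the count expected from the donut-shaped neighborhood around the loop pixel. Both THZ1 libraries called it between chr14:75595001-75600000 and chr14:75770001-75775000, with the NEK9 anchor 5 kb nearer to FOS and the other anchor 10 kb further past it, and with 73 and 60 contacts. The second anchor there starts 1.07 kb beyond the 20 kb window, so that this loop left the count for FOS with THZ1 although all 4 libraries called it.

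The observed over expected ratio of the NEK9 loop was 20.6 and 17.6 in the THZ1 libraries, above both vehicle values. The observed contacts were not higher, and the expected counts behind the ratio were 8.45 and 8.96 at the vehicle position and 3.55 and 3.41 at the THZ1 position. When the window was widened to 30 kb, a choice made after these anchors were seen, FOS had 8, 6, 6 and 3 loops. The groups then overlapped, and the log2 difference in mean number went from -1.74 to -0.64 (exact permutation p = 0.667).

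A pair of FOS loops appeared in the lists of both vehicle libraries but of no THZ1 library. The first, of 120 kb, joined chr14:75760001-75765000 to the start of TMED10, a cargo receptor of the early secretory pathway, at chr14:75640001-75645000, with 30 and 32 contacts and ratios of 5.04 and 5.16. The second, of 35 kb, spanned the whole gene from chr14:75725001-75730000 to chr14:75760001-75765000, with 33 and 34 contacts and ratios of 4.69 and 3.94. THZ1 replicate 1 instead called an 85 kb loop from the TMED10 start to chr14:75725001-75730000, with 22 contacts, whose far anchor is 35 kb from that of the 120 kb loop.

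The FOS window also reached further in 3 libraries. A loop of 375 kb joined it, at 25 kb anchors, to the start of RPS6KL1, a ribosomal S6 kinase-like gene, with 47 and 41 contacts in the vehicle libraries and 49 in THZ1 replicate 1. On the other side, a loop of 360 kb to the start of ERG28, a gene of sterol synthesis, had 21 contacts in vehicle replicate 1 and 29 in THZ1 replicate 1. THZ1 replicate 2 called neither of them.

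FOSL1 encodes FRA1. Its anchors were crowded with other genes: the anchor at chr11:65655001-65660000 holds the end of FOSL1 and the starts of CCDC85B and FIBP, so these loops cannot be assigned to FOSL1 alone. The one FOSL1 loop in all 4 libraries joined this anchor to chr11:65755001-65760000, 100 kb away and 12.1 kb from the nearest gene start, EIF1AD, a translation initiation factor-like gene. It had 32, 46, 46 and 35 contacts and ratios of 4.14, 5.92, 5.23 and 4.02, so that the groups overlapped. From the same anchor a 180 kb loop ran to the start of KAT5, the TIP60 acetyltransferase, at chr11:65475001-65480000. Its contacts were 28, 31 and 30 and its ratios 6.73, 6.74 and 6.63 in the vehicle libraries and THZ1 replicate 2, with little difference between these libraries.

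THZ1 replicate 1 did not call the KAT5 loop, nor the FOSL1 loops to SART1, a splicing factor gene, and to CFL1 and MUS81, which encode cofilin and a DNA junction endonuclease. The loops to SART1 at chr11:65725001-65730000 had 37 and 41 contacts in the vehicle libraries and 40 in THZ1 replicate 2 at 5 kb anchors, and THZ1 replicate 2 had a further call at 10 kb anchors with 77. The FOSL1 start was in the anchor of the call in vehicle replicate 1 and of the 10 kb call in THZ1 replicate 2. THZ1 replicate 2 had 5 calls at FOSL1, beside 4 in each vehicle library, but both of its SART1 calls belong to 1 distinct loop. The low number at FOSL1 thus belonged to 1 THZ1 library.

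FOSL2 encodes FRA2. Of its 27 loop calls, 26 shared the anchor that holds the promoter shown above and the starts of all 4 FOSL2 transcripts. Of those, 25 ran upstream, toward, into or across the long gene BABAM2, the longest of them as far as SLC4A1AP or near it. The distant ends lay at 35, 120, 235, 435, 505, 630 and 690 kb in vehicle replicate 1, so that 1 fixed anchor met a series of upstream segments. BABAM2 encodes a subunit of the BRCA1-A complex. Of the 10 distinct loops, 5 were called in all 4 libraries and 1 in 3.

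The shortest FOSL2 loop joined the promoter to chr2:28580001-28585000, 35 kb upstream and in no protein-coding gene, with 46, 46, 37 and 35 contacts and ratios of 4.38, 3.88, 3.40 and 3.41. The next, of 120 kb, reached chr2:28495001-28500000 inside BABAM2, with 39, 44, 40 and 26 contacts and ratios of 6.54, 5.76, 4.95 and 3.81. In both, each THZ1 ratio lay below each vehicle ratio. The loops at 235 and 435 kb, also to BABAM2, had both THZ1 ratios below both vehicle ratios as well. The first had ratios of 8.72, 8.43, 6.64 and 6.80 and the second 7.23, 5.94, 4.73 and 4.60, on 20 to 31 contacts. The distant anchor of the first began at chr2:28380001 in both vehicle libraries and at chr2:28375001 in both THZ1 libraries. That of the second began at chr2:28200001 in THZ1 replicate 1 and at chr2:28180001 in the other libraries. These ratios thus compare positions that differ between libraries. The longest, of 675 to 710 kb, ended in or near SLC4A1AP and overlapped between the groups, with ratios of 9.03, 5.43, 3.79 and 5.80.

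At 505 kb the FOSL2 promoter was joined to chr2:28110001-28115000, where BABAM2 and RBKS, the ribokinase gene, start back to back. This promoter-to-promoter loop had 13 and 16 contacts in the vehicle libraries at 5 kb anchors and 40 in THZ1 replicate 2 at 10 kb anchors, where each pixel covers more DNA. Downstream of FOSL2, THZ1 replicate 1 alone called a 360 kb loop to the start of PPP1CB, a catalytic subunit of protein phosphatase 1, with 25 contacts.

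**Figure D2:**
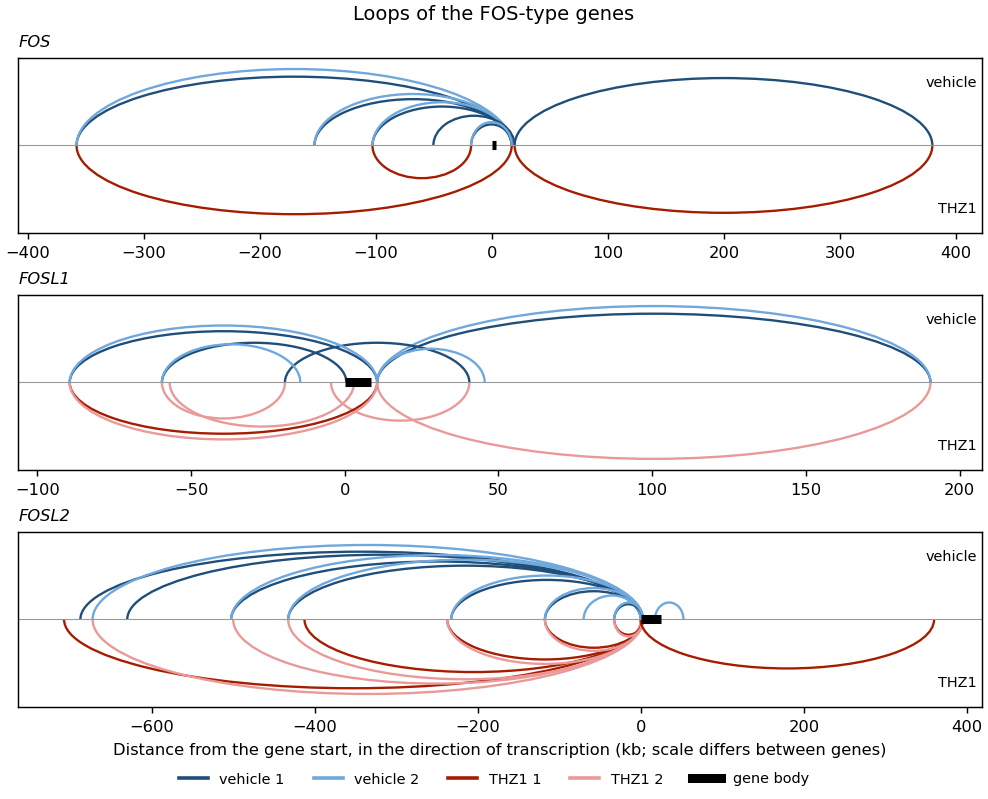
Loops of FOS, FOSL1 and FOSL2 as arcs between anchor midpoints, by distance in kb from the gene start (x axis, positive in the direction of transcription), with vehicle libraries above and THZ1 libraries below the line; arc height has no unit. FOSL2 loops fan out upstream from the promoter in every library, no FOS arc ends on the gene body, and the NEK9 loop of FOS is missing below the line because its THZ1 anchors lie past the 20 kb window.

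JUN encodes c-JUN, the most studied AP-1 subunit. Its loops ran mostly upstream, into the gene desert between JUN and FGGY, a carbohydrate kinase gene. A loop of 510 to 525 kb to the FGGY start was called in all 4 libraries, with 74, 27, 25 and 35 contacts. The calls differ in anchor width, 25 kb in vehicle replicate 1, 10 kb in THZ1 replicate 2 and 5 kb in the other libraries, and the ratios of 2.75, 8.70, 5.72 and 3.90 overlapped between the groups. A further loop in all 4 libraries, of 920 to 960 kb, reached the body of FGGY, with 33, 39, 32 and 32 contacts and ratios of 3.52, 3.47, 3.67 and 2.62. The call of THZ1 replicate 1 lay outside the JUN window.

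The JUN promoter itself, at chr1:59245001-59250000, met chr1:59205001-59210000, 40 kb downstream of it, with 26, 36 and 30 contacts in the vehicle libraries and THZ1 replicate 2. It also met chr1:59280001-59285000, 35 kb upstream, with 37, 35 and 27 contacts in the same libraries. From the promoter or the adjoining bin, a loop of 975 to 980 kb into FGGY was again called in these 3 libraries, with 14 and 23 contacts at 5 kb anchors in the vehicle libraries (ratios 5.74 and 7.17) and 37 at 10 kb anchors in THZ1 replicate 2 (ratio 3.68). THZ1 replicate 1 called none of these 3 loops, and its count of 3 loops at JUN stands beside 7 in THZ1 replicate 2. The adjoining bin at chr1:59250001-59255000, which starts just upstream of the promoter, met a segment 95 kb further upstream with 37 and 34 contacts in vehicle replicate 1 and THZ1 replicate 1, and with 53 contacts at 10 kb anchors in vehicle replicate 2.

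A JUN loop of 355 kb was called with vehicle alone, in both libraries. It joined chr1:59250001-59255000 to chr1:59605001-59610000 in the desert, with 21 and 33 contacts and ratios of 4.99 and 5.72. THZ1 replicate 1 called a loop 27.5 kb from it, beyond the matching distance of 20 kb.

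JUNB encodes the JUN-type protein JUNB. Its 1.83 kb body lies among other short genes, and long transcripts of HOOK2 run across it in the annotation, so these loops too are shared with neighbors. Of its 4 distinct loops, 3 were called in all 4 libraries. The promoter or a bin up to 15 kb from it met the starts of TNPO2, a nuclear import receptor gene, or of GET3 and TRIR, 40 to 80 kb upstream. The calls with the most contacts had 34, 43, 28 and 26, with ratios of 2.69, 3.49, 3.13 and 3.82. They ended at GET3 and TRIR in both vehicle libraries and at TNPO2 in both THZ1 libraries, so these ratios compare different contacts. Vehicle replicate 1 had a further call in this group, to TNPO2, with 33 contacts and a ratio of 4.74. Its anchors were those of the call of THZ1 replicate 1. A loop from downstream of JUNB toward the start of RTBDN, a riboflavin binding protein gene, had ratios of 3.40, 2.80, 3.01 and 3.85. A loop around the gene ended at chr19:12955001-12960000, with 22, 30, 31 and 29 contacts, but of these calls the window held only that of vehicle replicate 1, whose other anchor lay 15 kb nearer to JUNB. In all of these the groups overlapped. The loop of 35 kb between chr19:12870001-12875000 and chr19:12905001-12910000, which spans JUNB, was called in vehicle replicate 1 and both THZ1 libraries, with 26, 28 and 36 contacts.

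JUND encodes the JUN-type protein known for steady expression across many tissues. From its promoter a 40 kb loop ran to the start of LSM4, an RNA-binding protein gene of the spliceosome, with 49, 47, 39 and 35 contacts and ratios of 6.02, 5.36, 4.45 and 3.46, and both THZ1 ratios lay below both vehicle ratios. The anchors of that loop were 1 bin further apart on each side in THZ1 replicate 1. A 135 kb loop ran from the JUND promoter to the start of SSBP4, a single-stranded DNA binding protein gene. It had 27, 28 and 24 contacts at 5 kb anchors in the vehicle libraries and THZ1 replicate 1. The call of THZ1 replicate 2 that was joined to it spanned 140 kb, with 46 contacts at 10 kb anchors. Its near anchor, chr19:18380001-18390000, holds neither the body nor the promoter of JUND. The ratios of 8.63, 7.29, 7.91 and 4.56 overlapped between the groups, but the last is from these other anchors. On the other side an 85 kb loop to the start of MPV17L2, a mitochondrial ribosome factor gene, was called in vehicle replicate 2 and THZ1 replicate 1, with 35 and 26 contacts.

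ATF3 encodes a stress-induced protein of the ATF family. Its loops formed a chain of segments. A segment just before the first start of the gene, chr1:212730001-212735000, met chr1:212655001-212660000 over 75 kb, with 38, 47, 33 and 36 contacts and ratios of 5.37, 5.52, 4.00 and 4.46. The distant segment in turn met chr1:212780001-212785000, which holds the starts of 3 of the 10 ATF3 transcripts, over 125 kb, or 110 kb in vehicle replicate 2, with 43, 41, 36 and 32 contacts and ratios of 7.33, 6.93, 5.76 and 4.97. In both loops each THZ1 ratio lay below each vehicle ratio. The nearest protein-coding start to the distant segment was that of NENF, 51.2 kb away. The shorter loop inside this span, of 35 to 50 kb, had ratios of 2.66, 3.67, 2.88 and 3.15, which overlapped. From the internal starts a 60 kb loop ran toward BATF3, a gene of the same protein family, whose start was 30.7 kb from the anchor, with 26, 28 and 27 contacts in the vehicle libraries and THZ1 replicate 1.

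**Figure D3:**
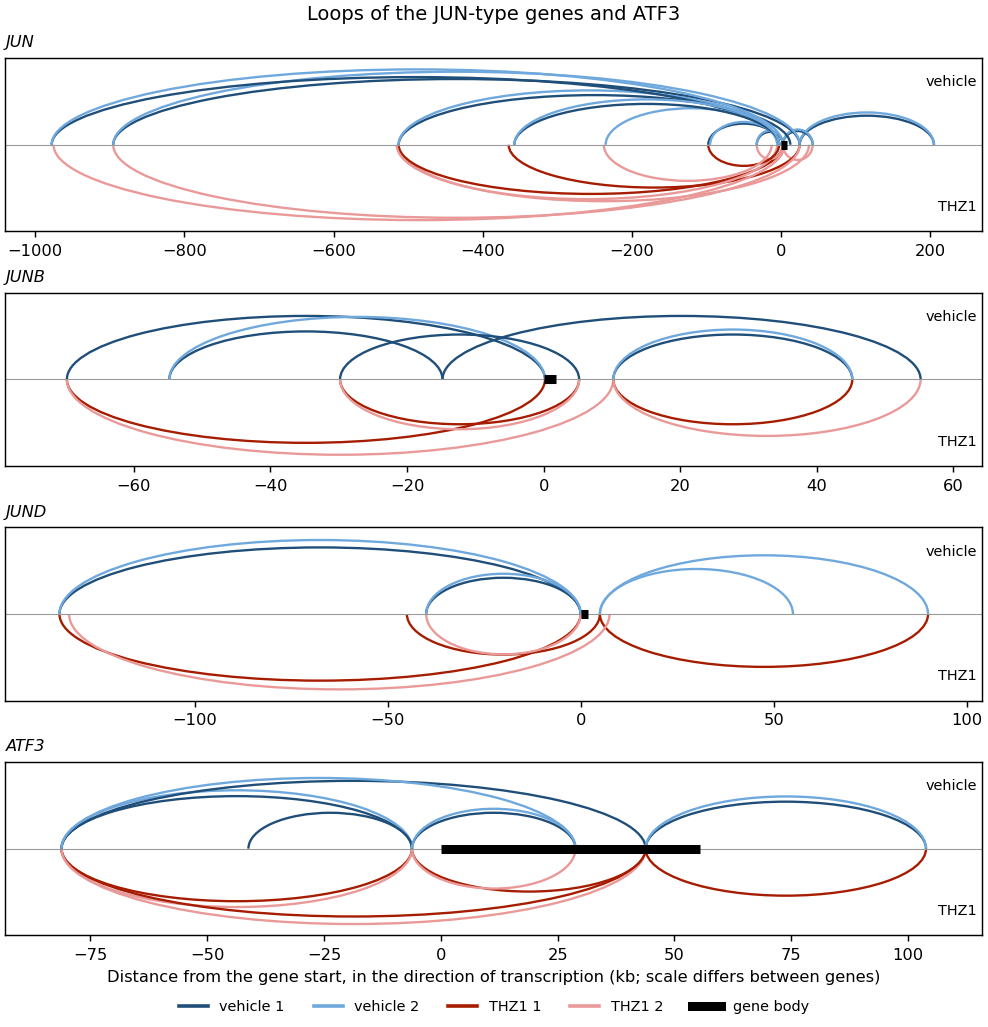
Loops of JUN, JUNB, JUND and ATF3 as arcs between anchor midpoints, by distance in kb from the gene start (x axis, positive in the direction of transcription), with vehicle libraries above and THZ1 libraries below the line; arc height has no unit. JUN has loops of up to 980 kb upstream, JUND has arcs to both sides, and the ATF3 arcs share segments before and inside the gene.

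Calls were joined where both anchor midpoints lay within 20 kb of each other, and joined calls formed chains. The outermost calls of a distinct loop could thus lie further apart, as for the longest FOSL2 loop, which began at chr2:27905001 to chr2:27940001. This gave 45 distinct AP-1 loops, out of 33552 in all. Of these, 17 (37.8%) were called in all 4 libraries, against 26.1% of all distinct loops, counting the calls outside the window described above for FOS, JUN and JUNB, and 10 (22.2%) in 1 library, against 40.8%. The loops in both vehicle libraries and no THZ1 library numbered 4, at FOS and JUN (8.89%), against 9.67% of all distinct loops. No AP-1 loop was called in both THZ1 libraries and no vehicle library, against 2.24%. A further 7 loops (15.6%) at FOSL1, FOSL2 and JUN were called in both vehicle libraries and THZ1 replicate 2 but not in THZ1 replicate 1, against 3.39% of all, and 3 (6.67%) were missing in THZ1 replicate 2 instead, against 6.01%. The number of loops in both vehicle libraries alone depended on the window and the matching distance: it was 0 with the gene bodies alone, 8 with 30 kb on each side, and 2 when calls within 50 kb were matched.

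**Figure D4:**
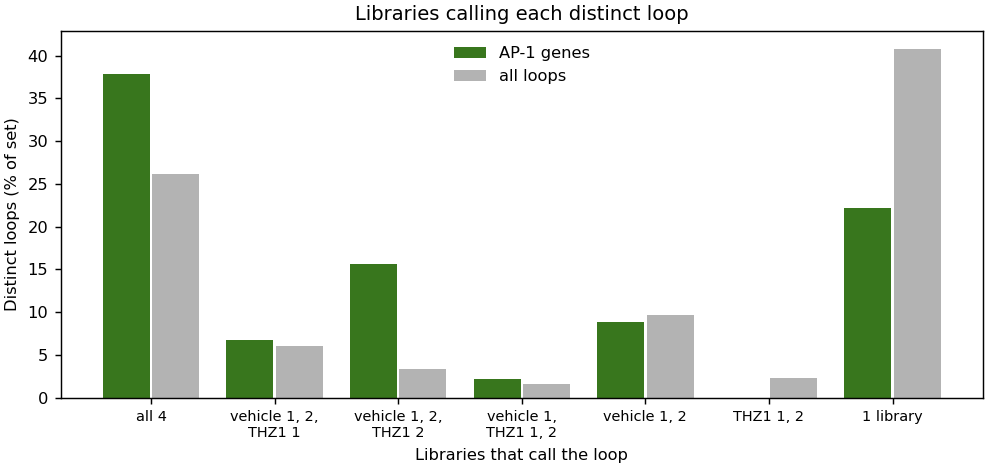
Share of distinct loops (y axis, percent of each set) by the libraries that called them (x axis), for the 45 AP-1 loops (green) and all 33552 loops (grey); patterns with few loops are left out. The AP-1 share is higher for loops in all 4 libraries (37.8% against 26.1%) and for loops missing only in THZ1 replicate 1, close for loops in both vehicle libraries alone, and 0 for loops in both THZ1 libraries alone.

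Among the 17 loops in all 4 libraries, the ratio of observed to donut-expected contacts was lower in both THZ1 libraries than in both vehicle libraries for 7 (41.2%), against 49.1% of all such loops. These were 4 loops of the FOSL2 promoter, the LSM4 loop of JUND and the pair of ATF3 loops to chr1:212655001-212660000. Among them, the FOSL2 loops of 235 and 435 kb, the LSM4 loop and the ATF3 loop of 125 kb had anchors that differed between libraries. The ratio was higher in both THZ1 libraries for 1, the NEK9 loop of FOS (5.88%, against 6.03% of all), and 9 overlapped. The median log2 difference in ratio, THZ1 minus vehicle, was -0.28 over the 17 AP-1 loops, from -0.58 to 1.10, and -0.35 over all loops of this kind. Over all called AP-1 loops the median ratio was 4.63, 4.13, 3.81 and 3.82, and over all loops 4.60, 4.60, 4.10 and 4.04 (exact permutation p = 0.33 for each).

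**Figure D5:**
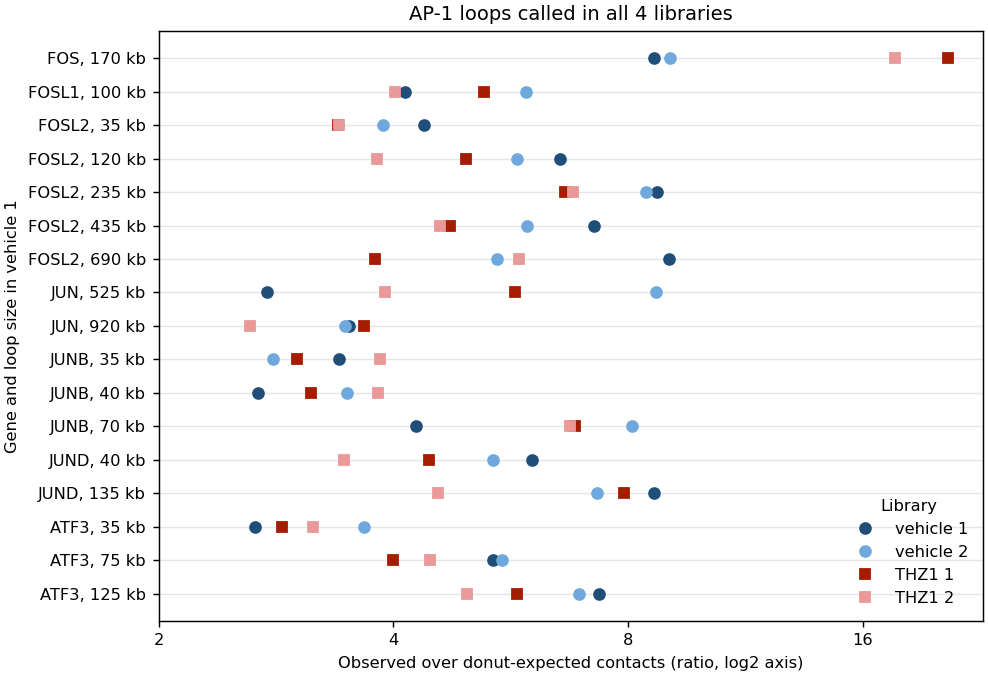
Observed over donut-expected contacts (x axis, log2 scale) of the 17 AP-1 loops called in all 4 libraries, 1 row per loop with its gene and its size in vehicle replicate 1; circles are vehicle libraries and squares THZ1 libraries. Squares lie left of both circles for 4 FOSL2 loops, 1 JUND loop and 2 ATF3 loops, and right of both for the FOS loop, whose anchors differ between the groups by 5 kb at one end and 10 kb at the other. Among the loops with squares to the left, anchors also differ between libraries for the FOSL2 loops of 235 and 435 kb, the JUND loop and the ATF3 loop of 125 kb.

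Strength could be tested where the anchors were identical in all 4 lists, which held for 4 AP-1 loops among the 2619 loops tested. In edgeR's quasi-likelihood test on the observed contacts, with the log of the donut expectation as offset, no AP-1 loop passed an adjusted p of 0.05, where 27.5% of all tested loops were weaker with THZ1. All 4 values lay below 0. The log2 difference was -0.46 (SE 0.217, adjusted p = 0.122) for the 120 kb FOSL2 loop and -0.27 (SE 0.201, adjusted p = 0.35) for the 35 kb FOSL2 loop. It was -0.37 (SE 0.206, adjusted p = 0.217) for the 75 kb ATF3 loop and -0.12 (SE 0.224, adjusted p = 0.702) for the 100 kb FOSL1 loop. The median of the 4 was -0.32, beside -0.41 over all tested loops, and -0.30 beside -0.01 with TMM scaling of the contacts in place of the expectation, so the order of the medians depended on the scaling. In the fit with the donut offset none of the 4 had an unadjusted edgeR p under 0.05, the lowest being 0.0516. DESeq2 gave none of them an unadjusted p under 0.05 and no adjusted p, since its filter on low counts left them out.

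Pooled over the genes, the AP-1 loops were short by their median, though not at every gene. The median size, taken between anchor starts, was 100, 100, 100 and 110 kb, where that of all loops was 140 and 140 kb with vehicle and 200 and 200 kb with THZ1. In vehicle replicate 1, FOSL2 loops spanned 35, 120, 235, 435, 505, 630 and 690 kb. JUN loops ran from 35 to 975 kb there, with 355, 525 and 920 kb among them. Loops of 90 kb or less made up 45.9%, 48.6%, 43.5% and 46.2% of the AP-1 loops, and 37.3%, 36.8%, 26.2% and 25.5% of all loops. The AP-1 share exceeded that of all loops by 10.2 ± 2.20 percentage points with vehicle and 18.9 ± 2.37 with THZ1 (SD, n = 2), with p = 0.33 in the exact permutation test.

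Contact domains, stretches whose segments meet each other more than their surroundings, lay over the body of 4, 4, 3 and 3 AP-1 genes, while the lists held 1198, 1398, 2477 and 2345 domains in all. FOSL2 had a domain of 710 kb, chr2:27920001-28630000, in both vehicle libraries, with corner scores of 1.53 and 1.55, and none in the THZ1 libraries. Its borders lie near the ends of the longest FOSL2 loop, and 2.25% of the 9265 genes with a domain in any library had one in both vehicle libraries and no THZ1 library. JUN lay in a domain of 1040 to 1080 kb in all 4 libraries, with scores of 1.23, 1.24, 1.41 and 1.37. FOSL1 lay in one of 130 to 160 kb in all 4, JUNB in one of 160 to 200 kb in every library but vehicle replicate 1, ATF3 in one of 120 kb in vehicle replicate 1, and FOS and JUND in none.

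A strict match to the core of the CTCF motif was found at few loop anchors, both at the AP-1 genes and in all. The letters searched on both strands were CCANNAGNNGGC, in which the Ns were, in order, C or G, C or T, A or G, and G or T. Of 57 distinct 5 kb anchors of AP-1 loops, 4 (7.02%) held it, against 9.66% of all 5 kb loop anchors and 1.87% of all 5 kb windows of the genome. In 30 bases around the core, in capitals, the matches read as follows, on the strand of the motif in GRCh37.
FOSL2, chr2:27906556-27906585, minus strand: agatttctgCCACCAGAGGGCagtataccc
JUN, chr1:59205702-59205731, plus strand: aacactcttCCAGCAGAGGGCactatttct
JUNB, chr19:12888539-12888568, plus strand: cgcccgggcCCACCAGGGGGCgcggagacc
JUNB, chr19:12871544-12871573, plus strand: ccagagtggCCACCAGAGGGCgcctatgaa
The first lies in an intron of SLC4A1AP at the distant end of the 710 kb FOSL2 loop of THZ1 replicate 1, and the second in an intron of a long noncoding RNA at the end of the 40 kb JUN loop. The third lies in an intron of HOOK2 and the fourth in no annotated gene. No AP-1 loop with 5 kb anchors had a match at both ends, where 1.82% of all did, but the 51 distinct AP-1 positions are too few to tell none from that share. A stretch without these letters may still be bound by CTCF.

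The other gene lists also had fewer loop calls with THZ1. The 14 other AP-1 and related genes, among them ATF2, FOSB and BATF, had 41, 51, 30 and 27 loops, 13 kinase pathway genes upstream of AP-1, such as EGFR and MAPK8, had 47, 57, 33 and 24, and 19 target genes, such as PLAU and VIM, had 81, 82, 64 and 65. The numbers were lower in both THZ1 libraries for 7 of 14, 4 of 12 and 5 of 17 genes with a loop, against 28.9% of all such genes, and higher in both for 0, 0 and 1. Vehicle calls exceeded THZ1 calls 1.61-fold, 1.82-fold and 1.26-fold, and differences between the lists were not tested. In the edgeR test, 0 of 5, 4 of 8 and 3 of 13 tested loops of these lists were weaker with THZ1, against 27.5% of all tested loops.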

How the data were processed

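Hi-C was done on MDA-MB-231 cells by Arima Genomics, in duplicate. The authors ran Juicer 1.6, per the submitters' processing notes, which also name hg19, and the list headers name juicer_tools 1.19.02. In the deposited HiCCUPS loop lists, observed values are raw counts of contacts, expected values are a signal on the same scale from 4 neighborhoods, and FDR values are q-values (the highest donut q-value was 0.0959). In the deposited Arrowhead domain lists, the score is a corner score. The members and the gene lists were chosen with earlier results of these data known.

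The analysis used pandas 2.3.3, numpy 2.4.6 and matplotlib 3.10.9 in Python 3.11.15. Protein-coding genes came from the GENCODE 44 annotation on GRCh37. Where a library called a distinct loop more than once, the call with the most contacts gave its value. Library values were compared by exact two-sided permutation over 6 splits. Strength was tested with edgeR 4.0.16 in R 4.3.3 on 2619 of 2624 loops with identical anchors in all 4 lists (5 with an expected value of 0 were left out), with Benjamini-Hochberg adjustment; DESeq2 1.42.0 was the other tool. Both procedures were tested on simulated data. Named loops were those in 3 or more libraries, in both libraries of 1 condition alone, in the authors' tables of unique loops or past the strength threshold; others in 1 or 2 libraries are named for their partner and were chosen after their values were seen. Alternatives were the window, anchor width, FDR, matching distance, other expectations, a minimum count, a replicate block and leaving out each library. Promoters are from RefSeq (table on GRCh38.p14), and 7 entries of 6 of the genes matched GRCh37 exactly. Neither contact maps nor compartments were used here. A JUN loop is not reported here.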

Additional observations from a re-analysis of the deposited data

How the results depend on the processing

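The difference in the number of AP-1 loops kept its direction under each alternative, from -0.15 with only 10 kb anchors to -0.67 with only 5 kb anchors on the log2 scale, beside -0.56 as reported; leaving out 1 library gave -0.65 to -0.47. The difference in median size, 0.07 as reported, reversed to -0.12 with only 5 kb anchors and to -0.034 at a donut FDR of at most 0.01, and leaving out 1 library gave 0.0 to 0.14. The difference in median log2 ratio, -0.20 as reported, reversed to 0.26 with only 10 kb anchors, and leaving out 1 library gave -0.28 to -0.11. The cause of these reversals was not tested. Loops in both vehicle libraries alone numbered 4 as reported, 0 with gene bodies alone, 8 at 30 kb (added after seeing the data), 9 at 50 kb, 1 with only 10 kb anchors and 2 at a matching distance of 50 kb, and 7 to 10 without 1 library, where fewer libraries have to call or lack a loop. Loops in both THZ1 libraries alone numbered 0 as reported and 0 to 3 without 1 library. The number of contact domains over AP-1 genes, -0.41 on the log2 scale as reported and without any 1 library, reversed to 0.26 when only domains that hold the whole gene counted, which leaves out the FOSL2 domain of both vehicle libraries and the ATF3 domain of vehicle replicate 1.

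No AP-1 loop passed the strength threshold in edgeR under any alternative. With the expectation from the bottom-left neighborhood, and with the replicate block, 1 of the 4 tested loops had an unadjusted edgeR p under 0.05. With 50 kb on each side, the lowest adjusted edgeR p among 8 tested loops was 0.0548. With the replicate block the count past the threshold was 0 and the median log2 change -0.32, as without it. Across the tested loops, the deviations of same-numbered libraries had r = 0.017. A correlation takes out a shift common to all loops, so this value cannot settle whether same-numbered libraries were paired. Leaving out 1 library gave medians of -0.36 to -0.29. Over all tested loops, the calls rested on all 4 libraries: 720 were weaker as reported, 227 without vehicle replicate 1 and 0 without any other 1 library, with 699 to 824 at an unadjusted p under 0.05. With TMM scaling in place of the expectation 109 were weaker and 67 stronger, beside 720 weaker and 1 stronger as reported. With the replicate block 769 were weaker, and with DESeq2 56 of 385 with an adjusted p. TMM sets the median over all loops near 0 by its construction (-0.01), and the AP-1 median was then -0.30. Counts of 13 to 81 contacts per AP-1 loop at 5 kb anchors limit the precision of each ratio.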
